A study of Mus musculus with 5 samples.

Results

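The 9 genes described here encode secreted growth factors with known roles in blood vessel growth and tissue repair, together with a carrier of one of them: *Vegfa*, *Vegfb*, *Pdgfa*, *Pdgfb*, *Pdgfc*, *Igf1*, *Igfbp4*, *Hgf*, and *Grn*. They were taken by name as a functional group and make up 9 of the 17018 genes with a count in at least 1 library. All 9 were detected in every library and passed the filter on low counts.

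RNA-Seq was performed on bone marrow–derived macrophages (BMDMs) of Balb/c mice after 48 hours of coculture with 4T1 cells, a Balb/c mammary carcinoma line, with the cell types kept apart by a porous membrane. In the WT group, 2 libraries came from BMDMs grown with unmodified 4T1 cells. In the KO group, 3 libraries came from BMDMs grown with 4T1 cells in which *Adam17*, the gene of a metalloprotease that releases membrane-bound ligands and receptors from the cell surface, was knocked out. The labels give no genetic change in the BMDMs of either group. All KO libraries carry 1 knock-out designation, 2.8, so properties of that line cannot be told apart from the loss of *Adam17*. No library of BMDMs cultured alone was analysed here. No label says whether libraries of a group came from separate animals or cultures, so the p values below measure only the spread between these libraries, which may be technical.

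VEGF-A is the main growth factor of the vascular endothelium, and macrophages at oxygen-poor or injured sites are a well-known source of it. PDGFs act on fibroblasts, pericytes, and smooth muscle cells, whereas IGF-1 and HGF act on a broad range of cells, including epithelial and carcinoma cells. IGFBP-4 binds IGF-1 and keeps it from its receptor until a protease cleaves the carrier, and progranulin, the product of *Grn*, is a secreted glycoprotein that is also delivered to lysosomes.

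Total counts ranged from 14658694 to 20788373 per library. Levels are given as CPM (counts scaled by TMM to a common library size, which compare libraries for 1 gene) or as FPKM (which also divide by transcript length and so compare genes). Differences are KO minus WT on the log2 scale with their SE, from the quasi-likelihood test of edgeR over 12576 genes with Benjamini-Hochberg adjustment. A gene was called at an adjusted p of 0.05 or less. Of all genes tested, 14.9% were called higher and 16.8% lower in KO. With scaling by library size alone these numbers moved from 1869 higher and 2114 lower to 3015 higher and 1079 lower.

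Of the 9 genes, 2 rose (*Vegfa* and *Igf1*), 2 fell (*Igfbp4* and *Grn*), and 5 were not called. These 4 calls of 9 stand against a background of 31.7% of all genes tested, and none of the 9 changed by 1 or more on the log2 scale, as 4.22% of all genes did with a call. The KO libraries were all above the WT libraries for *Vegfa*, *Igf1*, and *Hgf* and all below them for *Igfbp4* and *Grn*, where 58.1% of all genes tested had groups that did not overlap. The median difference of the 9 genes was 0.01, as it was for all genes tested. In bulk RNA, fewer cells of a type and less RNA per cell cannot be told apart for any of these values.

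**Figure D1:**
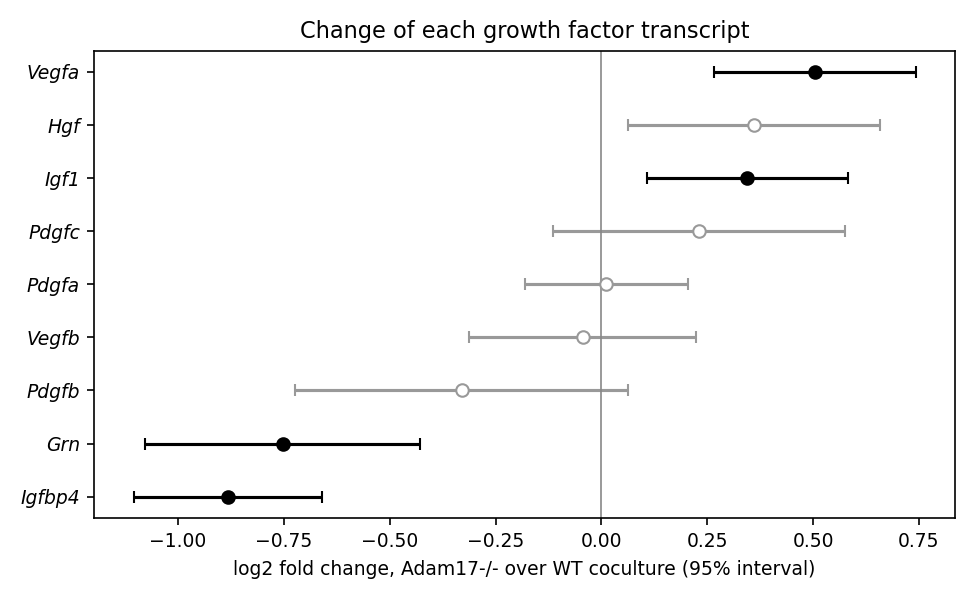
Log2 fold change, KO minus WT, of the 9 growth factor genes with 95% confidence intervals from edgeR, where filled black points mark genes called at an adjusted p of 0.05 or less. *Igfbp4* at −0.88 and *Grn* at −0.75 lay farthest below 0, and *Vegfa* at 0.50 lay farthest above it.

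*Vegfa* (gene 22339, chr17:46016993-46032377 in GRCm38.p6) was the second most abundant of the 9 transcripts per length. The WT libraries held 1582 and 1322 CPM, and the KO libraries 1967, 2002, and 2211 CPM. Every KO library was above both WT libraries. The means were 1452 ± 184 in WT (SD, n = 2) and 2060 ± 132 CPM in KO (SD, n = 3), a rise of 0.50 (SE 0.106, 95% confidence interval 0.27 to 0.74), or 1.42-fold (edgeR, adjusted p = 0.00741). Among all genes tested, *Vegfa* moved from rank 112 to rank 49 by mean FPKM.

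The deposited values are per transcript, and the 10 *Vegfa* transcripts listed fall into 7 that begin at an upstream start (chr17:46032377, minus strand) and 3 that begin at an internal start (chr17:46025163). Transcripts were assigned to a start by their listed length, since the longest of each group exceeded the sum of its annotated exons by the same 16 bases (3547 against 3531, and 2857 against 2841). The internal start lies in intron 3 of the longer transcripts, 7214 bases downstream, and the first exon of the internal-start transcripts holds 643 bases of that intron. Internal-start transcripts therefore lack exons 1 to 3, within 1333 bases that only the upstream transcripts hold. Which protein they encode was not examined. The sequences just before both starts are shown because the 2 groups of transcripts differed between KO and WT. They are the minus strand of the RefSeq annotation's build, GRCm38.p6, 250 bases at chr17:46032378-46032627 and 183 bases, the intronic part of the same distance, at chr17:46025164-46025346, with the letters GGGCGG, the core of a GC box bound by Sp1-type factors, in capitals.
Vegfa upstream start: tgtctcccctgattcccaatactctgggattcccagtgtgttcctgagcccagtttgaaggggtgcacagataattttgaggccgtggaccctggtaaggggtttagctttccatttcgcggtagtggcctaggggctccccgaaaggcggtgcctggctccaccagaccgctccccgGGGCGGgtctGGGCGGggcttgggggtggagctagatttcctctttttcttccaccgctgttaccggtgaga
Vegfa internal start: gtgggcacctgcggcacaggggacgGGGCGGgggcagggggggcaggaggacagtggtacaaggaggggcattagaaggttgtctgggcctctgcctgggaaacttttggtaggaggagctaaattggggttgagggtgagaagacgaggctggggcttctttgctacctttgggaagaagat

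The upstream sequence held the GC box letters at 72 and 62 bases before its start, and the internal sequence held them once, at 158 bases before its start. Both strands were searched, and 32.7% of the 250-base sequences before the 32817 start sites in the RefSeq table hold these letters. The internal sequence is shorter than those, and 1 annotated transcript of *Vegfa* has an exon that overlaps it. Neither *Vegfa* sequence held TATAAA (12.4% of all), ACGTG, the core of the site read by hypoxia-inducible factors (16.6%), or TGANTCA, the AP-1 site (6.75%). Such a match describes the letters in these windows and does not show binding.

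The internal start took a larger share of *Vegfa* counts in KO. Its 3 transcripts held 34.0% and 32.0% of the counts in WT and 44.4%, 43.1%, and 41.6% in KO, and the groups did not overlap. The mean share was 33.0% ± 1.43 (SD, n = 2) in WT and 43.0% ± 1.39 (SD, n = 3) in KO. By FPKM it was 38.6% ± 1.51 and 49.1% ± 1.40. The log2 ratio of internal to upstream counts was 0.614 higher in KO (2-sided exact permutation p = 0.1, the smallest p that 2 against 3 libraries allow). This share rests on how the authors' counting divided reads between transcripts: 2198 bases are common to the longest transcripts of both starts, and transcripts of the same length carried identical values. For comparison with other genes, the count-weighted mean transcript length of *Vegfa* differed by −0.0298 (KO minus WT, log2 scale). Among 3013 genes with transcripts of differing length and at least 100 counts per library, 56.0% were lower in KO. Of these genes, 115 (3.82%) fell further than *Vegfa*.

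When each start was counted as its own gene in the test of all genes, a step chosen after the data were seen, the transcripts of the internal start had 538.7 and 423.4 CPM in WT and 872.3, 862.6, and 919.3 CPM in KO. Their difference was 0.88 (SE 0.110, edgeR adjusted p = 0.000832). Transcripts of the upstream start had 1044 and 898.5 CPM in WT and 1094, 1139, and 1292 CPM in KO. The KO libraries were again all above WT, but the difference of 0.28 (SE 0.105) was not called (edgeR, adjusted p = 0.0726). Leaving out each library in turn gave 0.71 to 1.06 for the internal start and 0.17 to 0.38 for the upstream start. The call for the internal start was kept each time, and the adjusted p for the upstream start ran from 0.0138 to 0.206.

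**Figure D2:**
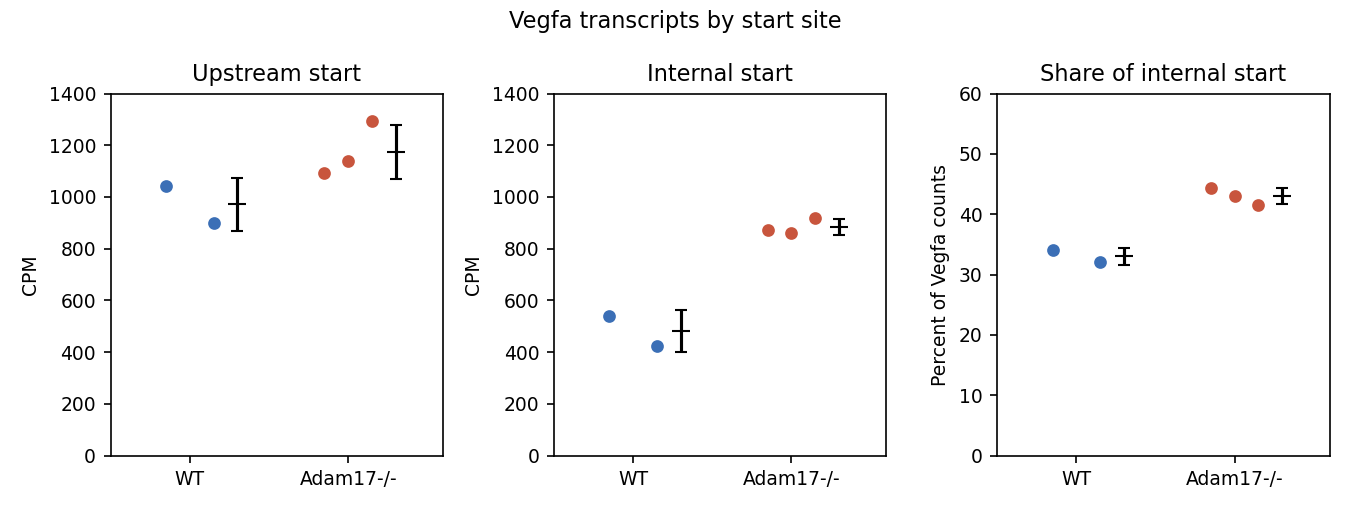
*Vegfa* by transcript start, with levels in CPM and the share of internal-start counts in percent, where dots are libraries and black bars are the mean ± SD. Internal-start transcripts rose from 481 to 884.7 CPM on average, and upstream-start transcripts went from 971 to 1175 CPM.

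*Vegfa* is also spliced into forms named for their length in residues, which differ in how tightly they bind heparan sulfate on cells and matrix. The listed transcript lengths separate a short form that lacks exon 6 (72 bases) and exon 7 (132 bases), a middle form that lacks exon 6, and a long form with both. Internal-start transcripts lack exons 1 to 3, so for them these names describe exons 6 and 7 only and give no protein length. Over all transcripts, the middle form held 52.5% ± 1.56 of counts in WT and 54.5% ± 1.40 in KO, the short form 33.0% ± 1.35 and 30.8% ± 2.07, and the long form 14.5% ± 0.203 and 14.8% ± 2.38 (SD, n = 2 and 3). The groups overlapped for all 3 forms. Within each start, however, the short form was lower in KO without overlap. It held 50.7% and 50.8% of internal-start counts in WT and 46.3%, 45.9%, and 46.5% in KO. It held 25.3% and 23.16% of upstream-start counts in WT and 18.3%, 22.95%, and 16.03% in KO, so WT replicate 2 and KO replicate 2 nearly met. The middle form was higher in KO without overlap within both starts, with means of 40.9% and 43.8% for the internal start and 58.3% and 62.6% for the upstream start. The long form was higher in KO within the internal start, at 8.64% and 8.18% in WT and 9.50%, 9.65%, and 10.8% in KO, and overlapped within the upstream start. How often transcript shares of other genes separate in this way was not counted, and these form shares were not tested.

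*Vegfb* (gene 22340, chr19:6982472-6987651), a relative of *Vegfa* that binds VEGFR-1, did not follow it. It was at 28.04 and 22.01 CPM in WT and 24.7, 23.01, and 25.1 CPM in KO, with every KO library between the WT libraries. The difference was −0.04 (SE 0.12, 95% confidence interval −0.31 to 0.22, edgeR adjusted p = 0.802). The sign turned with scaling by library size, to 0.11. The shorter of its 2 transcripts held 21.4% and 20.6% of counts in WT and 22.3%, 24.9%, and 31.5% in KO, which is above WT in each library by a margin set mainly by KO replicate 3.

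The 3 PDGF genes encode chains that pair into dimers, PDGF-A and PDGF-C acting mainly through PDGFR-alpha and PDGF-B through both PDGF receptors. None of them was called. *Pdgfa* (gene 18590, chr5:138976014-139000792) was at 82.5 and 77.4 CPM in WT and 78.0, 85.4, and 78.4 CPM in KO, and its difference of 0.01 had a 95% confidence interval of −0.18 to 0.20 (edgeR, adjusted p = 0.933). *Pdgfb* (gene 18591, chr15:79995865-80024614) was at 47.3 and 33.3 CPM in WT and 30.5, 39.0, and 26.9 CPM in KO. Its WT libraries lay farther apart than the group means, and the difference of −0.33 (SE 0.175, 95% confidence interval −0.72 to 0.06) was not called (edgeR, adjusted p = 0.178). Without WT replicate 2 it was −0.57 and was called (edgeR, adjusted p = 0.00893), with the spread taken from the KO libraries alone. Without WT replicate 1 it was −0.060 and was not called (edgeR, adjusted p = 0.799). *Pdgfc* (gene 54635, chr3:81036416-81214040), the least abundant of the 9 per length, was at 12.9 and 11.3 CPM in WT and 12.9, 17.1, and 12.9 CPM in KO (difference 0.23, 95% confidence interval −0.11 to 0.57, edgeR adjusted p = 0.276). Its difference was 0.11 without KO replicate 2, the highest library, and 0.13 without WT replicate 2.

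**Figure D3:**
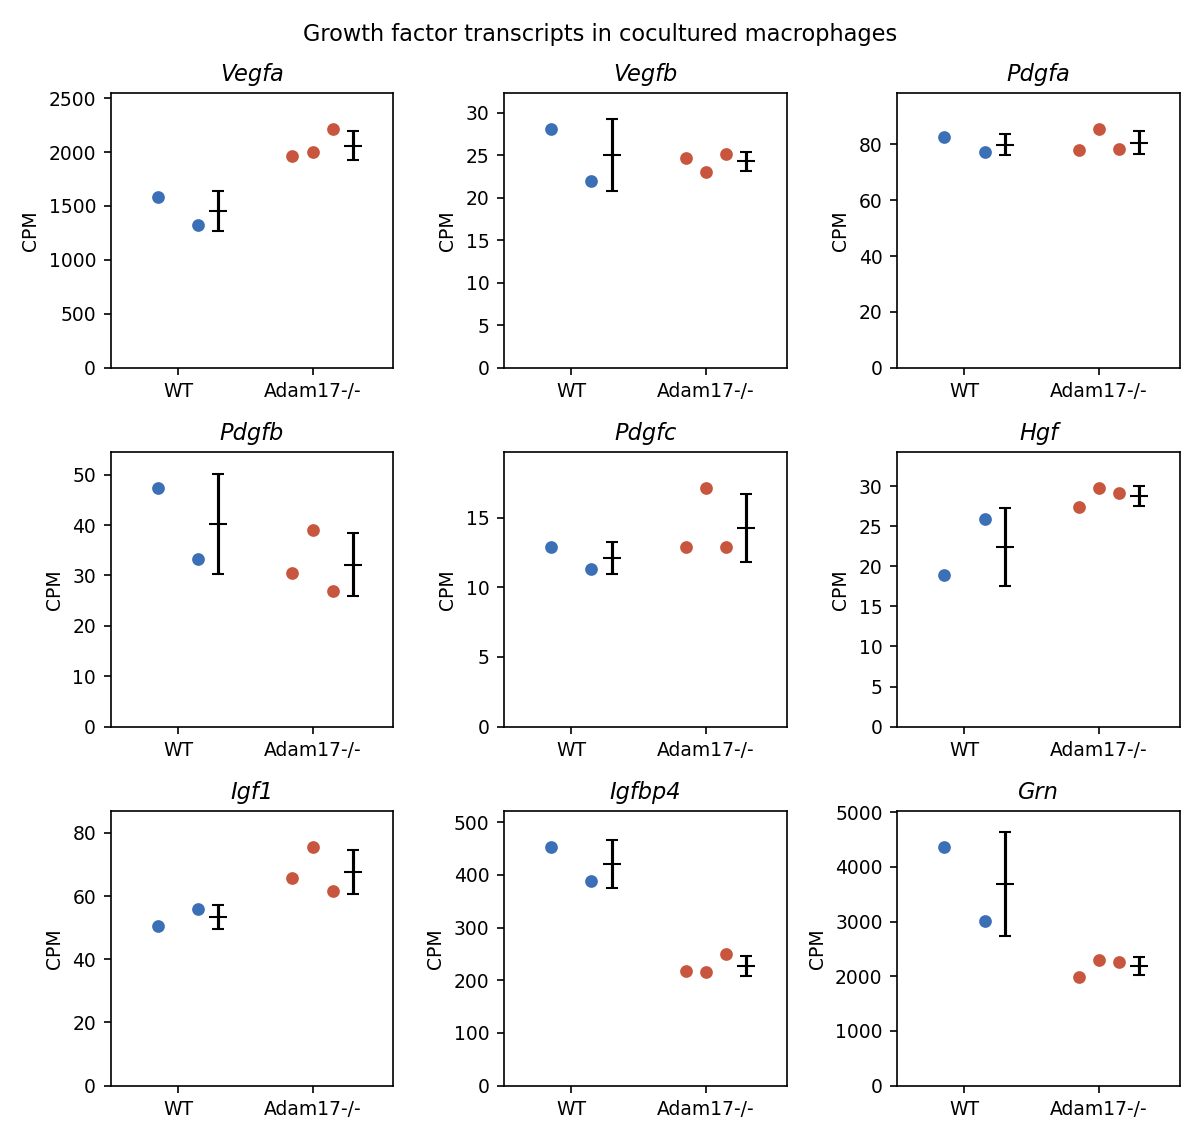
Level of each of the 9 genes in CPM by library, each panel with its own axis, where dots are libraries and black bars are the mean ± SD of the 2 WT and 3 KO libraries. KO dots lie above WT dots for *Vegfa*, *Igf1*, and *Hgf*, below them for *Igfbp4* and *Grn*, and the groups overlap for the other 4 genes.

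*Igf1* (gene 16000, chr10:87858265-87937047) and its carrier *Igfbp4* (gene 16010, chr11:99040005-99052655) moved in opposite directions. *Igf1* was at 50.6 and 56.0 CPM in WT and 65.9, 75.5, and 61.8 CPM in KO, with all KO libraries above WT. The means were 53.3 ± 3.82 (SD, n = 2) and 67.7 ± 7.04 CPM (SD, n = 3), a rise of 0.34 (SE 0.106, 95% confidence interval 0.11 to 0.58), or 1.27-fold (edgeR, adjusted p = 0.0339). This call was lost without WT replicate 1 (0.27), KO replicate 1 (0.38), or KO replicate 2 (0.28), with adjusted p up to 0.117 (edgeR), while the sign held.

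*Igfbp4* had the largest fall of the 9 genes. It was at 452.4 and 388.1 CPM in WT and 218.3, 215.4, and 249.8 CPM in KO. The highest KO library was well below the lower WT library. The means were 420.3 ± 45.5 (SD, n = 2) and 227.8 ± 19.1 CPM (SD, n = 3), a difference of −0.88 (SE 0.0993, edgeR adjusted p = 0.00055) and a KO level of 0.542 times that of WT. Per length, *Igfbp4* exceeded *Igf1* by 31.4 and 24.3 times in FPKM in WT and by 11.6, 10.01, and 14.2 times in KO, so the ratio of carrier to ligand transcript was lower in each KO library.

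The 250 bases before an annotated *Igfbp4* start (chr11:99040994-99041243, plus strand, GRCm38.p6, start at 99041244) are shown because this gene fell most and because they hold a TATA box, TATAAA, 28 bases before that start. Of all such sequences, 12.4% hold these letters at any place. The annotated gene begins upstream of that start, at chr11:99040005, and the sequence before this position is not shown. The capitals mark the box. The letters of the other 3 motifs named above are not in this window on either strand, and its GC content is 69.2%.
Igfbp4 start: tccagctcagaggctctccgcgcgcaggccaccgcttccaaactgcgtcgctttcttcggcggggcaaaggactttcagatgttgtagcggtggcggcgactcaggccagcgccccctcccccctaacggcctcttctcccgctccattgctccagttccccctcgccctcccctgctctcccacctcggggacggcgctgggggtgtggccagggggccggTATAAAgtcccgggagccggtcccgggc

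The other IGF carriers and their proteases were low in these cells. Of 12 such genes, 5 were tested, of which 2 were called higher and 0 lower. *Igfbp7* rose from 1.56 to 2.95 CPM (difference 0.92, edgeR adjusted p = 0.0234), a call lost in 4 of 13 alternatives. *Igfbp5*, called in the same test, had 1 count in each WT library and 7, 14, and 64 counts in KO, so its WT level was under the floor of 3 counts and KO replicate 3 held most of its counts. *Pappa*, the gene of the protease that cleaves IGFBP-4, had 0 and 2 counts in WT and 1, 4, and 3 in KO, and was at or near the floor in both groups.

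*Hgf* (gene 15234, chr5:16553495-16619439), whose product is the ligand of MET, was at 18.9 and 25.9 CPM in WT and 27.4, 29.7, and 29.2 CPM in KO. All KO libraries were above WT, and WT replicate 2 was close to the lowest of them. The difference of 0.36 (SE 0.133, 95% confidence interval 0.06 to 0.66) was not called (edgeR, adjusted p = 0.064). It was called with upper quartile factors, with scaling by library size, without the count filter, and in both fits of FPKM, and its value without WT replicate 2 was 0.60 (edgeR, adjusted p = 0.000856, with the spread of the KO libraries alone). Without WT replicate 1 it was 0.15, so the size of this difference rested on which WT library was kept.

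Of the 5 transcripts listed for each, the leading *Hgf* transcript held 72.4% ± 8.46 of counts in WT and 74.7% ± 8.54 in KO, and the leading *Igf1* transcript 71.3% ± 5.01 and 73.5% ± 7.57 (SD, n = 2 and 3). The groups overlapped in both cases. *Pdgfa*, *Pdgfb*, *Pdgfc*, *Igfbp4*, and *Grn* had 1 listed transcript each.

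*Grn* (gene 14824, chr11:102430507-102436809) was the most abundant of the 9 genes in both groups. It was at 4361 and 3014 CPM in WT and 1996, 2298, and 2271 CPM in KO. The KO libraries lay close together and below both WT libraries, which were themselves far apart. The means were 3688 ± 953 (SD, n = 2) and 2188 ± 167 CPM (SD, n = 3), a difference of −0.75 (SE 0.145, 95% confidence interval −1.08 to −0.43), with KO at 0.594 times the WT level (edgeR, adjusted p = 0.00496). The call was kept without WT replicate 1, but the difference was then −0.47. *Sort1*, the gene of the sortilin receptor that takes up progranulin, was at 106.7 ± 0.949 CPM in WT and 116.6 ± 6.06 CPM in KO (0.13, edgeR adjusted p = 0.259). *Psap*, whose product prosaposin travels with progranulin to lysosomes, was at 8427 ± 1814 and 7733 ± 819 CPM (−0.12, edgeR adjusted p = 0.534), and its sign turned in 4 of 13 alternatives.

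By FPKM, the order of the 9 genes in WT was *Grn* (mean 1514), *Vegfa* (438.9), *Igfbp4* (197.1), *Pdgfa* (79.0), *Vegfb* (19.4), *Pdgfb* (13.1), *Hgf* (7.79), *Igf1* (7.15), and *Pdgfc* (3.30). In KO it was the same, with means of 998.3 for *Grn*, 705.8 for *Vegfa*, and 118.5 for *Igfbp4*. *Hgf* and *Igf1* overlapped between libraries in both groups, as did *Pdgfb* and *Hgf* in KO, and the other neighbours in the order did not.

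**Figure D4:**
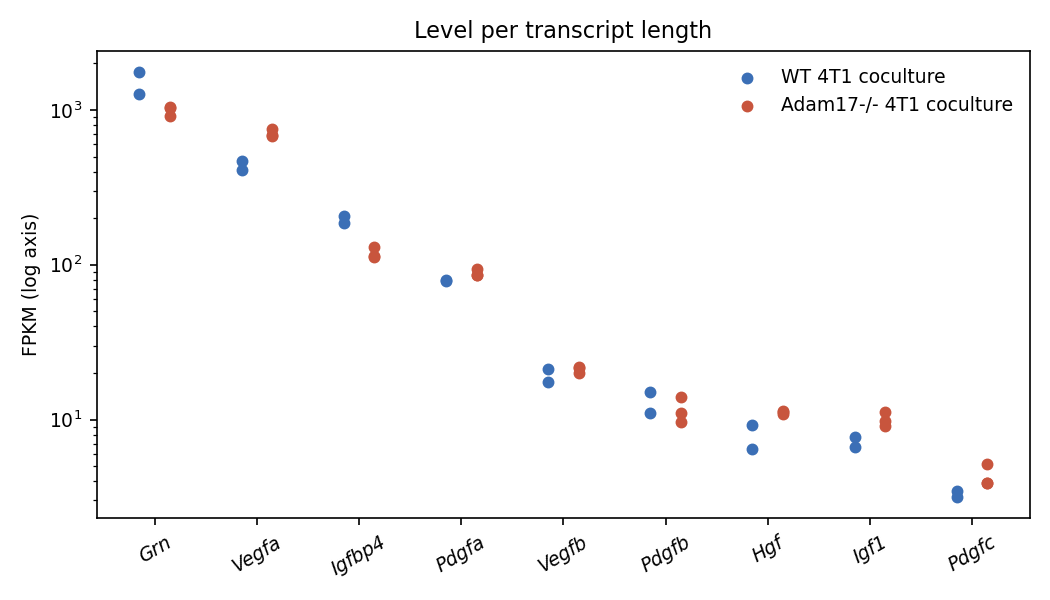
FPKM of the 9 genes on a log axis in each library, ordered by the WT mean. *Grn*, *Vegfa*, *Igfbp4*, and *Pdgfa* lay apart from the rest, and *Hgf* and *Igf1* overlapped in both groups.

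The BMDMs also carried transcripts of several receptors for these factors, of which 4 of 12 were called higher and 4 lower. The VEGF receptors and coreceptors with a sizable level fell, while *Vegfa* counts summed over both starts rose. The difference of the upstream-start *Vegfa* transcripts alone (0.28) was not called. *Nrp1*, the gene of the coreceptor neuropilin-1, was at 285.5 and 289.4 CPM in WT and 131.6, 137.4, and 146.2 CPM in KO (−1.05, SE 0.0799, edgeR adjusted p = 0.000159). *Nrp2* fell from 743.9 ± 23.4 to 410.3 ± 31.5 CPM (−0.86, edgeR adjusted p = 0.000413), and *Kdr*, the gene of VEGFR-2, from 70.5 ± 9.24 to 42.3 ± 5.38 CPM (−0.74, edgeR adjusted p = 0.00265). *Flt1*, the gene of VEGFR-1, had 15 and 14 counts in WT and 23, 32, and 52 counts in KO, and its call (1.40, edgeR adjusted p = 0.0234) was lost in 5 of 13 alternatives. *Flt4*, the gene of VEGFR-3, reached at most 1.45 CPM in any library and was not called.

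For the PDGF receptors, *Pdgfrb* rose from 6.71 ± 1.83 to 15.4 ± 1.497 CPM (1.20, edgeR adjusted p = 0.00148), and *Pdgfra* had 6 and 3 counts in WT and 10, 12, and 7 counts in KO. For the IGF axis, *Igf1r* was at 44.6 and 47.7 CPM in WT and 65.5, 77.7, and 69.9 CPM in KO (0.62, SE 0.0987, edgeR adjusted p = 0.00208). *Igf2r*, whose product carries IGF-2 and lysosomal enzymes to lysosomes, fell from 305.1 ± 5.69 to 192.9 ± 32.4 CPM (−0.66, edgeR adjusted p = 0.00399). *Insr* rose by 0.40 (edgeR, adjusted p = 0.0121), a call lost in 3 of 13 alternatives, among them those without KO replicate 1 or without KO replicate 2. *Met* was at 17.03 ± 1.59 and 19.99 ± 2.96 CPM (0.23, edgeR adjusted p = 0.237). *Nrp1*, *Nrp2*, *Kdr*, *Pdgfrb*, *Igf1r*, and *Igf2r* were called in all 13 alternatives.

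**Figure D5:**
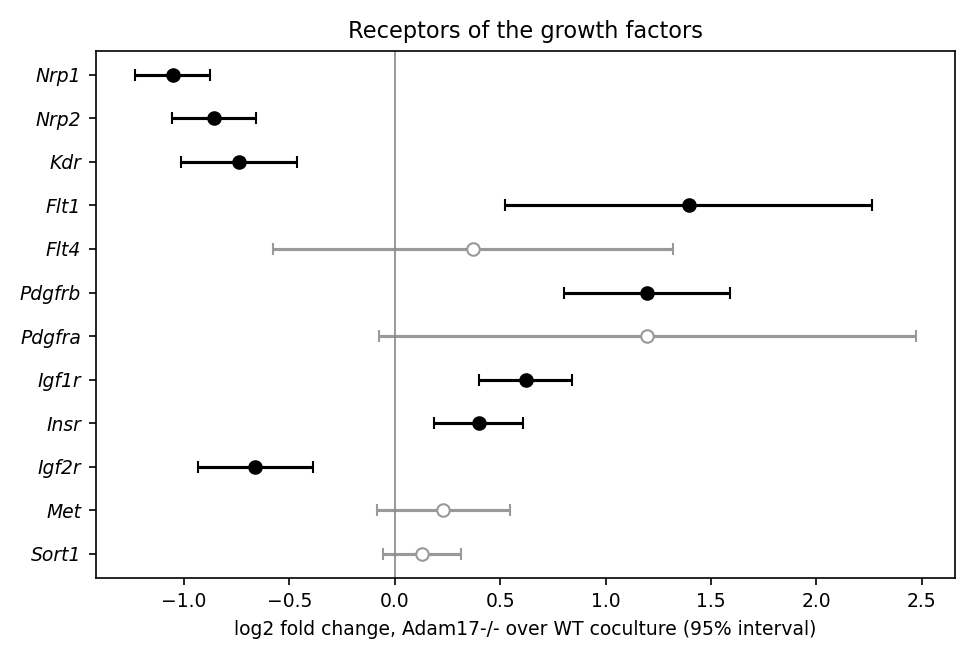
Log2 fold change, KO minus WT, of the 12 receptor genes with 95% confidence intervals from edgeR, where filled points are called and open points are not. *Nrp1* (−1.05), *Nrp2*, *Kdr*, and *Igf2r* lay below 0, and *Igf1r*, *Insr*, *Pdgfrb*, and *Flt1* lay above it.

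Among 29 other growth factor genes, 15 were tested, and 2 were called higher and 1 lower. *Tgfb1*, the most abundant of them, fell from 515.8 ± 114 to 262.8 ± 11.9 CPM (−0.97, edgeR adjusted p = 0.000835). *Fgf7*, the gene of keratinocyte growth factor, rose from 3.04 to 7.58 CPM (1.32, edgeR adjusted p = 0.00131), and *Adm*, which encodes the vasodilator adrenomedullin, from 1.28 to 4.04 CPM (1.66, edgeR adjusted p = 0.0017). The placental relative of *Vegfa*, *Pgf*, was at 5.41 and 4.23 CPM and not called (edgeR, adjusted p = 0.217). *Vegfc*, *Igf2*, and *Fgf2* were too low to test, and *Pdgfd* and *Ptn* had no count in any library.

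Proteases that activate or release these factors, with their inhibitors, gave 2 genes higher and 5 lower of 12 tested. *Plau*, the gene of urokinase, which can cleave pro-HGF, fell from 119.9 ± 21.2 to 60.7 ± 7.17 CPM (−0.98, edgeR adjusted p = 0.000924), and its receptor *Plaur* from 242.1 ± 42.9 to 122.0 ± 11.6 CPM (−0.99, edgeR adjusted p = 0.000684). *Plat*, the gene of the tissue-type activator, had 0 to 3 counts per library. *Furin*, whose product cleaves PDGF and IGF-1 receptor precursors, fell by 0.45 (edgeR, adjusted p = 0.0116), a call lost without KO replicate 1. Calls for *St14* and *Slpi*, lower, and *Hpn*, higher, were lost in 7 or more of 13 alternatives.

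Of 7 tested genes of angiogenesis inhibitors, 3 were called lower and 2 higher. *Col18a1*, whose product is the source of endostatin, fell from 158.5 ± 24.9 to 67.8 ± 10.04 CPM (−1.23, edgeR adjusted p = 0.000465), and *Pf4*, the gene of platelet factor 4, from 1988 and 2092 CPM to 975.7, 923.5, and 1026 CPM (−1.07, edgeR adjusted p = 0.000174). *Thbs2* (2.00) and *Sparc* (0.90) were called higher and *Thbs1* (−0.39) lower, and each of these calls was lost in at least 3 of the alternatives that gave a value (12 for *Thbs2* and 13 for the others).

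*Vegfa* is a classical target of hypoxia-inducible factors, so the factors and other transcripts of that response were counted too. Of 16 genes, all tested, 5 were called higher and 1 lower, where 14.9% and 16.8% of all genes tested were called. *Bnip3* rose from 162.9 ± 46.4 to 290.0 ± 30.3 CPM (0.83, edgeR adjusted p = 0.00494), *Ankrd37* from 12.8 to 22.3 CPM (0.80, edgeR adjusted p = 0.00274), and *Egln3* from 73.4 and 86.2 CPM to 127.4, 105.5, and 127.2 CPM (0.59, edgeR adjusted p = 0.00487). *Pdk1* and *Vhl* rose by 0.48 and 0.49 (edgeR, adjusted p = 0.00602 and 0.00691). *Slc2a1*, *Ldha*, *Pgk1*, and *Car9*, which encode the glucose transporter GLUT1, 2 glycolytic enzymes, and a carbonic anhydrase, were not called, with differences of −0.24, −0.09, 0.02, and −0.35. *Ndrg1* was also not called (0.27, edgeR adjusted p = 0.0547), although all its KO libraries were above WT and only 4 of 13 alternatives gave no call. *Hif1a* itself was at 600.6 and 866.5 CPM in WT and 661.1, 636.4, and 619.1 CPM in KO (−0.20, edgeR adjusted p = 0.282). The 1 gene called lower, *Epas1*, lost its call in 7 of 13 alternatives.

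The genes whose centred log2 CPM profile over the 5 libraries was closest to that of *Vegfa*, among 8486 genes with a mean of at least 10 CPM, were *Ice2*, *Cd300lf*, and *Cish*, with root mean square differences of 0.0282, 0.0317, and 0.0428. Closest to *Igfbp4* were *Arhgef7* (0.0401), *Lrrc25* (0.0417), and *Tubb6* (0.0433).

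The labelled cell type was checked against 8 macrophage markers, all of which were well detected, with summed levels of 27650 to 28400 CPM in WT and 17940 to 19900 CPM in KO. Of these, 6 fell and 0 rose, with a median difference of −0.59, so the fall of *Grn* and *Igfbp4* stands beside a fall of *Cd68* (−0.93), *Adgre1* (−0.66), and *Lyz2* (−0.65). *Csf1r* and *Mertk* were not called. Neutrophil granule genes moved the other way, with 8 of 10 higher, 0 lower, and summed levels of 324.2 to 394.0 CPM in WT and 1133 to 1310 CPM in KO. Megakaryocyte and platelet genes gave 5 of 9 higher and 2 lower, the last being *Pf4* and *Ppbp*. Of 8 endothelial genes, 2 were higher and 1 lower of 5 tested.

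Of 8 epithelial carcinoma markers, only *Cdh1* (10.6 to 13.2 CPM, not called) passed the filter, and the other 7, including *Epcam* and *Krt8*, were under 1 CPM in every library. Of 8 stromal markers, 6 were tested, with 2 higher and 1 lower. Their summed level was 147.5 and 149.9 CPM in WT and 95.4, 133.0, and 185.4 CPM in KO. *Pdpn* was the largest single term in every library, at 113.2 and 119.8 CPM in WT and 69.7, 84.6, and 75.9 CPM in KO. In KO replicate 3, however, the collagen genes *Col1a1* (66.3 CPM), *Col1a2* (30.4 CPM), and *Col3a1* (9.58 CPM) together held more than *Pdpn*, whereas *Col1a1* was at 11.5 CPM in KO replicate 1. Mast cell and basophil genes were at 1.68 to 5.26 CPM in sum, with 1 higher of 2 tested. The part of these markers in the growth factor differences was not tested. With KO replicate 1 as the only KO library, the differences were −0.93 for *Igfbp4*, −0.87 for *Grn*, and 0.45 for *Vegfa*, which was then not called (edgeR, adjusted p = 0.122). That fit was added after the data were seen, leaves 1 library in KO, and takes its spread from the WT pair alone.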

How the data were processed

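Libraries were grouped by their labels, 2 as WT and 3 as KO. The authors deposited 2 values for every RefSeq transcript in each library, an expected count without normalization and an FPKM that divides by length and depth. The study's methods describe BGISEQ-500 reads aligned to GRCm38 by HISAT and levels obtained with Bowtie2, whereas the submitters' processing notes name Bowtie, Bowtie2, RSEM, and DESeq2. Which of these aligners lies behind the deposited expected counts is not clear from them. Tool versions and the strand setting are not given in the sources used here. Sums of expected counts per gene were rounded. The quasi-likelihood test was that of edgeR 4.0.16 under R 4.3.3, with group as the only term, its default expression filter, and TMM scaling. Of the gene sums, 16.0% to 16.8% per library were not whole, which marks reads divided between genes or transcripts, so counts of genes with close relatives or overlapping neighbours are uncertain. A total of 43 gene identifiers had no RefSeq symbol. A floor of 3 counts was 0.157 to 0.197 CPM, and intervals cover only the spread between libraries. FPKM were tested with limma 3.58.1 on log2(FPKM + 0.1) and log2(FPKM + 1). The scripts were tested on simulated counts. Transcript shares used the expected counts.

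The members and gene lists were chosen with earlier results of these data known. All 9 members are named, with receptors, direct partners, and up to 5 genes per list ranked by the size of their difference among those with at least 1 CPM in every library. Genes named for a low or absent level, for a call lost in an alternative, or as an uncalled example of a list were picked after their values were seen. Alternatives were other scalings, other count filters, DESeq2 1.42.0, FPKM fits, a replicate block, and leaving out each library. Chi-square per degree of freedom between libraries was 25.7 for the WT pair and 5.22 to 6.32 for the KO pairs, so no library was treated as a second deposit of another. This does not tell repeat preparations from separate cultures. Protein sequences were not used here. The values of 1 gene of the protease and inhibitor list are not reported here.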

Additional observations from a re-analysis of the deposited data

How the results depend on the processing

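The differences of *Igfbp4* (−0.99 to −0.73), *Grn* (−0.998 to −0.466), and *Vegfa* (0.38 to 0.69) kept their direction and call in all 13 alternatives, and *Pdgfc* was never called. Genes called higher numbered 3015 with library size only, 2927 and 2867 in fits of log2(FPKM + 0.1) and log2(FPKM + 1), and 1089 to 2460 with each library left out. Genes called lower numbered 1079, 1016, 1011, and 926 to 2940. The median of all genes moved to 0.155 with library size only and to 0.153 and 0.113 in the FPKM fits. *Vegfb* turned to 0.013 with upper quartile factors, 0.11 with library size only, and 0.12 and 0.11 in the FPKM fits, and ranged from −0.21 to 0.14 with a library left out, and *Pdgfa* from −0.038 to 0.055. *Hgf* was called with upper quartile factors (0.42), library size only (0.50), no filter (0.36), and both FPKM fits (0.53 and 0.49), and with a library left out ranged from 0.15 to 0.60. With a library left out, *Pdgfb* ranged from −0.57 to −0.060, *Igf1* from 0.27 to 0.43, and the members called higher and lower from 1 to 3 and from 2 to 3. Where 1 WT library is left, it is assumed to vary like the KO libraries, although the WT pair differed more (chi-square per degree of freedom 25.7, against 5.22 to 6.32 for KO pairs), so adjusted p values from those fits may be too small. The cause of these shifts was not tested.

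The replicate numbers are shared by the labels, but same-numbered libraries did not deviate together (correlations −0.124 and −0.0504), so they share only a number. With a replicate block, 1216 genes were higher and 1127 lower, *Igf1* was 0.41 and not called (edgeR, adjusted p = 0.0615), and 1 member was called higher. *Vegfa* (0.46), *Igfbp4* (−0.95), and *Grn* (−0.76) kept their calls.

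Added after the data were seen, a fit without KO replicates 2 and 3, with 1 KO library assumed to vary like the WT pair, called 713 genes higher and 519 lower and 0 members higher (*Vegfa* 0.45, *Igf1* 0.32), with *Pdgfa* at −0.021. Also added, counting only upstream-start *Vegfa* in all 5 libraries gave 0.28, not called. Depth limits *Flt1*, *Pdgfra*, *Igfbp5*, and *Pappa*, at no more than 64 counts in any library.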
